A study of Rattus norvegicus with 12 samples.

Results

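The genes of matrix metalloproteinases (MMPs) and of their tissue inhibitors (TIMPs) were followed in rat left ventricle (LV) across the Sham, MI and iCarP+/Light+ groups. They were taken by symbol as Mmp2, Mmp3, Mmp8, Mmp9, Mmp12, Mmp14, Timp1, Timp2, Timp3 and Timp4. All 10, 6 MMPs and 4 TIMPs, were found among the 34599 genes of the count table, which holds 26 genes with an Mmp or Timp symbol. RNA was sequenced from 12 male Sprague-Dawley rats, 4 per group, in tissue that the labels call left ventricle and place in the MI region 1 day after infarction and implantation. Sham rats had a thoracotomy and no ligation. MI rats had the left anterior descending coronary artery ligated and were not treated. iCarP+/Light+ rats had the same ligation, an injection of the oxygen-releasing green alga Chlorella into the infarcted LV wall, a photonic patch (iCarP) glued to the epicardium, and illumination through it. Alga, injection, patch, adhesive and light thus came together, and their parts cannot be told apart. RNA-seq of rats with the patch and no light was not analysed here, and the labels do not say which region of a Sham heart stands for the MI region.

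MMPs are zinc-dependent proteases that cut collagens, gelatin, elastin and other proteins of the extracellular matrix, and most are secreted as inactive precursors. Mmp2 and Mmp9 are the gelatinases, Mmp8 is the collagenase stored in neutrophil granules, Mmp3 is a stromelysin, Mmp12 is the elastase of macrophages, and Mmp14 is anchored in the cell membrane, where it activates pro-MMP2. TIMPs bind active MMPs and block them, and an infarcted heart breaks down its matrix before a scar forms. RNA levels do not show how much of a protease is stored, secreted or active.

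Library totals ran from 14064414 to 17136958 reads on genes. Levels are given as CPM, reads scaled to a common library size by TMM, and values are listed for Sham rats 1, 2, 3 and 5, MI rats 1, 3, 4 and 5, and iCarP+/Light+ rats 1, 2, 4 and 5, in that order. The test was edgeR's quasi-likelihood F test on 15101 genes with Benjamini-Hochberg adjustment across them, and a gene was called at an adjusted p below 0.05. Mitochondrial genes took 22.8% to 28.9% of a Sham library, 8.52% to 11.5% of an MI library and 7.14% to 14.2% of an iCarP+/Light+ library. The summed level of 8 cardiomyocyte markers was 46974 to 52016 CPM in Sham, 2890 to 5924 CPM in MI and 2344 to 7040 CPM in iCarP+/Light+ rats, so the labelled tissue carried its defining markers in every rat, at much lower levels after ligation. In bulk tissue, fewer cells of a type and less RNA per cell cannot be told apart.

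Mmp12, Mmp3 and Mmp8 lie close together on chromosome 8 in the count table (coordinates on build rn6), at 5606592 to 5616493, 5676665 to 5698579 and 5768811 to 5778702, all on the + strand. They stand in a run of 10 Mmp genes that spans 378 kb, from Mmp13 at 5522739 to Mmp7, which ends at 5901049. Mmp9 lies on chromosome 3, Mmp14 on 15, Mmp2 on 19, Timp1 on X, Timp2 on 10, Timp3 on 7 and Timp4 on 4. The start-site windows of these 3 are shown because all 3 genes were called higher after ligation and lie in this run. They come from RefSeq (GRCr8, gene strand) at chr8:12866402-12866701, chr8:12925031-12925330 and chr8:13008640-13008939, all on the + strand, and capitals mark a match to the AP-1 site.
Mmp12: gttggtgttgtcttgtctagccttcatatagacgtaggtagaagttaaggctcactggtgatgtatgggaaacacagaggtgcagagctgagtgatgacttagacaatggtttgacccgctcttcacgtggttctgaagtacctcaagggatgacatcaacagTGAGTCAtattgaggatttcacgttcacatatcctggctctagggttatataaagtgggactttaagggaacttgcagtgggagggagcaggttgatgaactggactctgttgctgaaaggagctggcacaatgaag
Mmp3: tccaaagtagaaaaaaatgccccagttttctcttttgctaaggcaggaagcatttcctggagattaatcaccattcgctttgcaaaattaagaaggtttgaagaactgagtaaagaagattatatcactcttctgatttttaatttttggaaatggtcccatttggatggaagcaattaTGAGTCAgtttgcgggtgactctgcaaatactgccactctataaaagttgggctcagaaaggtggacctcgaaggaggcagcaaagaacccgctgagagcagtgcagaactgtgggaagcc
Mmp8: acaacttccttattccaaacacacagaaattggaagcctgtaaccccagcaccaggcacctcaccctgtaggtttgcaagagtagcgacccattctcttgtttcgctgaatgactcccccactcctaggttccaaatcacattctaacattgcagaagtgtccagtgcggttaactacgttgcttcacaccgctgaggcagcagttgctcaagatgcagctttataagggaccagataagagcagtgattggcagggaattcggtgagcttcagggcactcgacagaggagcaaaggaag

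RefSeq windows of 300 bases were matched for 7 of the 10 genes, and those of Mmp2, Mmp9 and Mmp14 were missing. The AP-1 letters TGACTCA, searched on both strands, were present in 2 of the 7 windows, those of Mmp3 and Mmp12, as TGAGTCA on the gene strand, and in 4.63% of 33469 windows in all. Their first base lay 71 bases before the start site in Mmp3 and 87 bases before it in Mmp12. TATAAA, searched on the gene strand, was present in the same 2 windows and in 8.80% of all windows. The PEA3 letters AGGAAG were present on either strand in Mmp3, Mmp8, Timp1 and Timp4, 4 of 7 against 34.5% of all windows, the hypoxia core ACGTG in Mmp12 alone against 19.3%, and the NF-kappaB motif in 0 of 7 against 4.18%. These matches describe letters in a window and do not show binding.

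All 10 genes were tested, and 6 were higher and 4 lower in MI than in Sham. The higher genes were Mmp3, Mmp8, Mmp9, Mmp12, Mmp14 and Timp1, and the lower were Mmp2, Timp2, Timp3 and Timp4. Over all genes tested, 30.2% were higher and 33.6% lower in this comparison. The groups did not overlap for 9 of the 10 genes, all but Mmp3, against 59% of all genes. Mmp3, Mmp8, Mmp9 and Mmp12 passed the filter on low counts only through the groups where they were high. Their difference from Sham was thus partly set by the filter and adds no support to the counts against Sham. Mmp3 passed through iCarP+/Light+ rats alone, so its difference between MI and iCarP+/Light+ was partly set by the filter too, and its calls add no support to the counts. From MI to iCarP+/Light+, 6 genes were higher (Mmp2, Mmp3, Mmp8, Mmp9, Mmp14 and Timp1), against 11.6% of all genes, 1 was lower (Timp2), against 2.01%, and Mmp12, Timp3 and Timp4 did not pass the test. The number called, 7, depended on single rats. It was 4 without MI rat 3, MI rat 4, Sham rat 5 or iCarP+/Light+ rat 5, 3 without iCarP+/Light+ rat 2 or 4, and 5 or 6 when another rat was left out. The call of Timp2 was lost with 9 of the 12 rats left out in turn, while Mmp2, Mmp8 and Mmp9 kept theirs each time. In that comparison the groups did not overlap for 6 of the 10 genes, against 16.4% of all genes. All 3 comparisons share rats (MI rats stand in the first and the second), so their values are not independent. The comparison of iCarP+/Light+ with Sham gave 6 higher and 4 lower genes, the ones that were higher or lower in MI, and no overlap of the groups for all 10. The shares over all genes were 33.5% higher, 33% lower and 63.5% without overlap.

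Over the 10 genes the median log2 fold change was 3.03 for MI against Sham, 0.51 for iCarP+/Light+ against MI and 3.59 for iCarP+/Light+ against Sham, beside -0.06, 0.01 and 0.02 over all genes. Mmp3 had no counts in Sham, and with Mmp3 at its lower bound the medians against Sham were 0.83 for MI and 2.35 for iCarP+/Light+. Within the families, the 6 MMPs had medians of 4.94 and 1.70 from Sham to MI and from MI to iCarP+/Light+ (3.03 for the former with Mmp3 at its bound), and the 4 TIMPs had -1.01 and -0.24. Against Sham, the medians over the 10 genes and over the MMPs were partly set by the filter, through Mmp3, Mmp8, Mmp9 and Mmp12. Mmp3 entered the 1.70 in the same way, and these medians add no support for a shift of the family. The remaining genes were at -1.95 (Mmp2), 1.34 (Mmp14), 4.82 (Timp1), -0.33 (Timp2), -1.69 (Timp3) and -2.73 (Timp4) from Sham to MI. Libraries scaled by total counts alone moved the median of all genes to 0.52 for MI against Sham, -0.25 for iCarP+/Light+ against MI and 0.33 for iCarP+/Light+ against Sham. Under that scaling 1204 genes were higher and 2722 lower from MI to iCarP+/Light+, against 1747 and 304 with TMM.

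**Figure D1:**
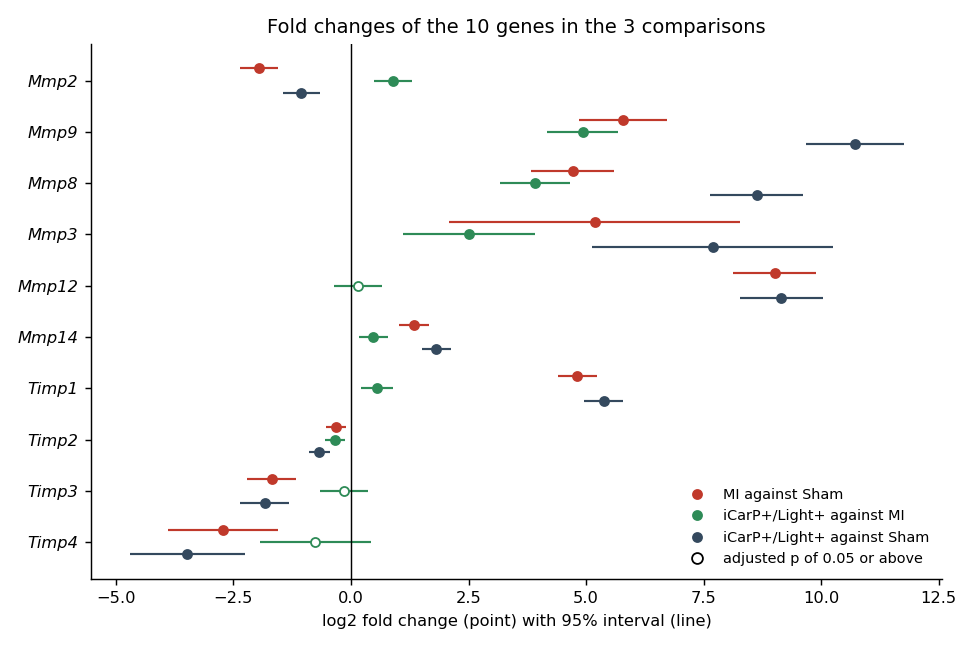
Log2 fold changes of the 10 genes (points) with 95% intervals (lines) from edgeR in 3 comparisons, with open points for an adjusted p of 0.05 or above. Mmp9 reached 4.93 from MI to iCarP+/Light+, while Mmp12 (0.14), Timp3 (-0.14) and Timp4 (-0.76) have intervals that cross 0; the values of Mmp3 against Sham are fitted against a group with no counts and give no size.

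Mmp9 (ENSRNOG00000017539, chromosome 3 from 161413298 to 161421520), the inducible gelatinase, was nearly silent in Sham, present in MI and highest in iCarP+/Light+ rats. It was measured at 0.434, 0.341, 0.152 and 1.03 CPM in Sham, at 22.6, 29.8, 30.2 and 27.0 CPM in MI, and at 443, 682, 956 and 1254 CPM in iCarP+/Light+ rats. No group overlapped another, and the iCarP+/Light+ rats spread over 443 to 1254 CPM. Sham rats had only 2 to 14 reads on Mmp9, and the ratio of summed, scaled counts was 55.7 for MI against Sham (95% counting interval 38.2 to 84.8) and 1673 for iCarP+/Light+ against Sham (1149.8 to 2539). Mmp9 rose by 5.79 on the log2 scale from Sham to MI (SE 0.44, adjusted p = 2.68e-07 by edgeR) and by 4.93 from MI to iCarP+/Light+ (SE 0.35, adjusted p = 3.13e-06 by edgeR). The second change ranked 14th by p and 66th by size among the 15101 genes. Without Sham rat 5, the Sham rat with the most Mmp9, the log2 fold change from Sham was 6.43 for MI and 11.35 for iCarP+/Light+, against 5.79 and 10.71 (SE 0.48) with all rats.

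Mmp8 (ENSRNOG00000009907), the neutrophil collagenase, followed the same order of groups. Its levels were 0.289, 1.23, 1.44 and 1.55 CPM in Sham, 36.6, 20.7, 34.5 and 26.8 CPM in MI, and 301, 537, 298 and 652 CPM in iCarP+/Light+ rats. The groups did not overlap, and Sham rat 1 stood below the other Sham rats. Mmp8 was 4.71 higher on the log2 scale in MI than in Sham (SE 0.41, adjusted p = 7.31e-07 by edgeR) and 3.91 higher again with iCarP+/Light+ (SE 0.35, adjusted p = 1.21e-05 by edgeR). The rises of Mmp8 and Mmp9 from MI to iCarP+/Light+ passed the test with each of the 12 rats left out, at 3.59 to 4.07 for Mmp8 and 4.58 to 5.13 for Mmp9. Both moved with neutrophil markers. All 8 of the 8 tested neutrophil markers (9 listed) rose from Sham to MI and rose further with iCarP+/Light+, and their summed level was 8.53 to 14.0 CPM in Sham, 425 to 720.5 CPM in MI and 2549 to 7781 CPM in iCarP+/Light+ rats. For 5 of the 8, Sham rats alone would not have passed the filter on low counts, so those differences from Sham were partly set by it. None of the 9 was at 0 in all rats. The part of these markers in the changes of Mmp8 and Mmp9 was not tested.

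Mmp2 (ENSRNOG00000016695, chromosome 19 from 15542765 to 15570611), the gelatinase that heart fibroblasts and other resident cells make without stimulation, went the other way after ligation. Levels were 304, 297, 292 and 282 CPM in Sham, 76.0, 86.8, 53.9 and 87.7 CPM in MI, and 119, 192, 144 and 111 CPM in iCarP+/Light+ rats. Every iCarP+/Light+ rat lay between the Sham and the MI rats. Mmp2 fell by 1.95 on the log2 scale from Sham to MI (SE 0.19, adjusted p = 1.67e-06 by edgeR), was 0.89 above MI in the iCarP+/Light+ group (SE 0.18, adjusted p = 0.00518 by edgeR), and was below Sham there, at -1.06 (SE 0.18, adjusted p = 0.000209 by edgeR). Leaving out single rats gave increases over MI of 0.71 to 0.96, which passed the test each time. Fibroblast markers fell with Mmp2 from Sham to MI, 7 of 8 by the test, and their summed level was 8526 to 10641 CPM in Sham and 2446 to 2842 CPM in MI. In iCarP+/Light+ rats it was 1288 to 2861 CPM, with 1 of 8 markers (Dcn) above MI, so the summed level overlapped MI where Mmp2 did not.

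Mmp14 (ENSRNOG00000010947, chromosome 15 from 33074441 to 33083655), the membrane-anchored activator of pro-MMP2, was measured at 73.1, 61.3, 57.01 and 67.1 CPM in Sham, at 195, 176, 136 and 148 CPM in MI, and at 204, 222, 209 and 276 CPM in iCarP+/Light+ rats. Again no groups overlapped, although MI rat 1 and iCarP+/Light+ rat 1 lay close together. The log2 fold change from Sham to MI was 1.34 (SE 0.14, adjusted p = 4.07e-06 by edgeR). The further difference between iCarP+/Light+ and MI rats was 0.48 (SE 0.14, 95% interval 0.17 to 0.78, adjusted p = 0.0404 by edgeR) and was not stable. It missed the threshold in 7 of 9 other settings, and was lowest with total counts alone (0.20, adjusted p = 0.306 by edgeR). It also missed it in 8 of 12 fits with 1 rat left out. These were the fits without MI rats 3, 4 or 5, Sham rats 2 or 5, or iCarP+/Light+ rats 2, 4 or 5 (0.29 to 0.51, adjusted p 0.0549 to 0.221 by edgeR).

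Mmp12 (ENSRNOG00000030187), the macrophage elastase, had the largest log2 fold change from Sham to MI among the members that could be given a size, and no called difference between MI and iCarP+/Light+ rats. It was measured at 0.0723, 0.205, 0.304 and 0.147 CPM in Sham, at 154, 76.2, 81.1 and 78.5 CPM in MI, and at 128, 77.4, 97.7 and 128 CPM in iCarP+/Light+ rats. MI rat 1 stood above the other MI rats and above every iCarP+/Light+ rat. Sham rats had 1 to 4 reads each, and the ratio of summed, scaled counts of MI against Sham was 549 (95% counting interval 298 to 1144). The fitted log2 fold change of 9.01 (SE 0.41, adjusted p = 2.25e-08 by edgeR) was the 3rd highest of all genes tested. Between MI and iCarP+/Light+ rats the difference was 0.14 (SE 0.24, 95% interval -0.37 to 0.65, adjusted p = 0.764 by edgeR). It was -0.02 without iCarP+/Light+ rat 5, 0.45 without MI rat 1 and -0.13 with total counts alone. Among monocyte and macrophage markers, 7 of 10 were higher in MI than in Sham and none lower, with summed levels of 531 to 829.7 CPM in Sham and 4103 to 7035 CPM in MI. In iCarP+/Light+ rats, at 3168 to 5124 CPM, 1 of the 10 was higher and 3 were lower than in MI.

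Mmp3 (ENSRNOG00000032626), a stromelysin that also activates other MMPs, was the rarest of the 10. It had 0 counts in every Sham rat, where 3 counts correspond to 0.205 to 0.228 CPM, and was measured at 0.479, 0.162, 0.447 and 0 CPM in MI and at 1.75, 1.27, 1.76 and 1.62 CPM in iCarP+/Light+ rats. All iCarP+/Light+ rats were above all MI rats, while MI rat 5 had no reads, as in Sham. Against the floor of 3 counts per library, the mean level was at least 1.25-fold higher in MI and at least 7.35-fold higher in iCarP+/Light+ than in Sham, with adjusted p = 0.00935 and 0.000225 by edgeR. With a replicate block the call of MI against Sham was lost (adjusted p = 0.0556 by edgeR). The ratio of summed, scaled counts of iCarP+/Light+ against MI was 5.77 (95% counting interval 3.58 to 9.74), and the log2 fold change was 2.51 (SE 0.65, adjusted p = 0.0279 by edgeR). That call was lost with a replicate block (2.65, adjusted p = 0.148 by edgeR), without MI rat 3 or without any 1 of iCarP+/Light+ rats 1, 2, 4 and 5 (2.33 to 2.61, adjusted p 0.0506 to 0.08 by edgeR).

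**Figure D2:**
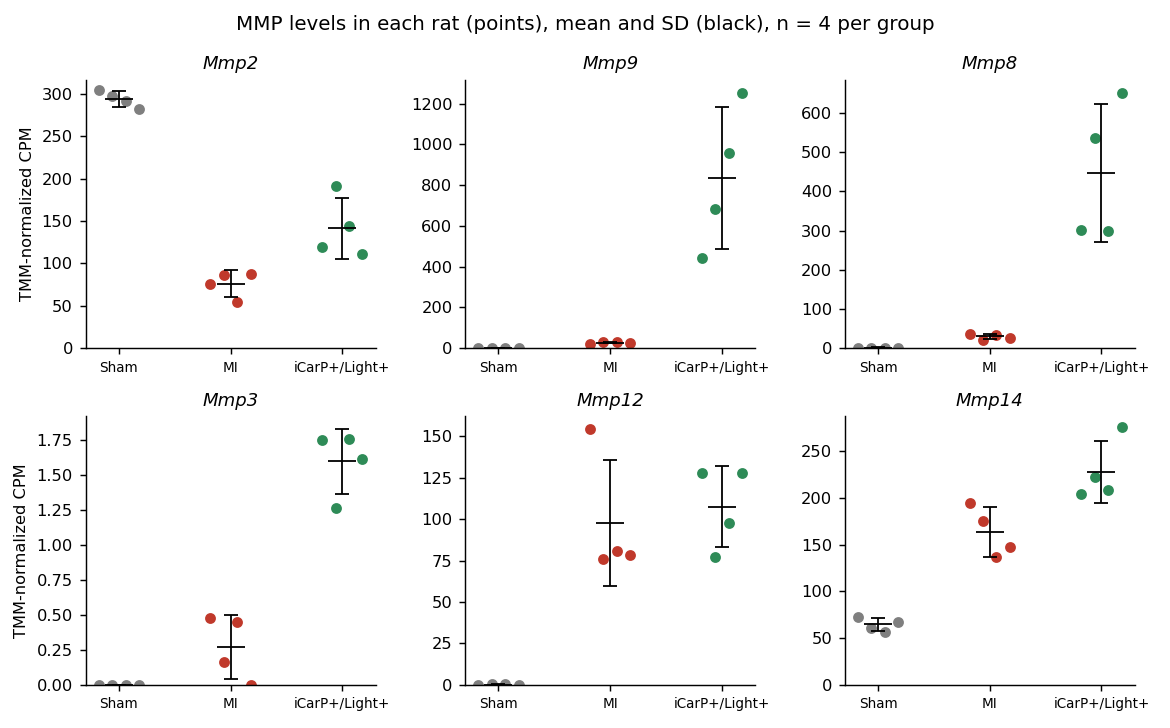
TMM-normalized CPM (linear axes from 0) of 6 MMP genes in each rat (points), with the group mean and SD (black), n = 4 per group. Mmp9 and Mmp8 are far higher in iCarP+/Light+ rats (443 to 1254 and 298 to 652 CPM) than in MI rats, Mmp12 is at 76.2 to 154 CPM in MI and 77.4 to 128 CPM in iCarP+/Light+ rats, and Mmp2 is highest in Sham.

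Timp1 (ENSRNOG00000010208, chromosome X from 1364786 to 1369384), the inducible inhibitor, was the only TIMP that was higher after ligation. It was measured at 13.4, 18.9, 17.003 and 15.3 CPM in Sham, at 398, 604, 449 and 371 CPM in MI, and at 580.1, 688, 746 and 659 CPM in iCarP+/Light+ rats. Every infarcted rat was far above every Sham rat, while MI rat 3 lay within the iCarP+/Light+ range. Its log2 fold change against Sham was 4.82 for MI (SE 0.19, adjusted p = 8.99e-09 by edgeR) and 5.37 in iCarP+/Light+ rats (SE 0.20, adjusted p = 4.16e-09 by edgeR). By p these ranked 4th and 3rd among all genes tested. The difference of 0.55 between iCarP+/Light+ and MI rats (SE 0.16, adjusted p = 0.0369 by edgeR) was lost in 5 of 9 other settings and in 8 of 12 fits with 1 rat left out. These were the fits without MI rats 1, 4 or 5, Sham rats 3 or 5, or iCarP+/Light+ rats 2, 4 or 5, with values of 0.47 to 0.55 and adjusted p of 0.0512 to 0.119 by edgeR. With total counts alone the difference was 0.29 (adjusted p = 0.204 by edgeR).

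Timp2 (ENSRNOG00000003148, chromosome 10 from 107338465 to 107386072), which blocks MMP2 and also helps MMP14 to activate it, fell by small steps. Its levels were 374, 359.7, 363 and 369 CPM in Sham, 306, 285, 316 and 262 CPM in MI, and 212, 242, 215 and 251 CPM in iCarP+/Light+ rats. The groups did not overlap in any comparison. Timp2 fell by 0.33 on the log2 scale from Sham to MI (SE 0.10, adjusted p = 0.012 by edgeR) by 0.35 from MI to iCarP+/Light+ (SE 0.10, adjusted p = 0.0364 by edgeR) and by 0.67 from Sham to iCarP+/Light+ (SE 0.10, adjusted p = 6.13e-05 by edgeR). With total counts alone the first of these turned to 0.25 (adjusted p = 0.0248 by edgeR), a scaling under which the median of all genes was 0.52, against -0.06 with TMM. It was -0.22 without iCarP+/Light+ rat 5 (adjusted p = 0.0586 by edgeR) and -0.19 with only the compared rats (adjusted p = 0.0904 by edgeR). With a replicate block it was -0.32 (adjusted p = 0.0647 by edgeR). The later fall, with iCarP+/Light+, was lost in 3 of 9 other settings and in 9 of 12 fits with 1 rat left out, those without MI rats 1, 3 or 4, Sham rats 1, 2 or 5, or iCarP+/Light+ rats 1, 2 or 4 (-0.37 to -0.31, adjusted p 0.052 to 0.106 by edgeR).

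Timp3 (ENSRNOG00000004303, chromosome 7 from 23544215 to 23594133), the TIMP that binds to the matrix, was measured at 229, 266, 239 and 236 CPM in Sham, at 74.7, 71.1, 42.0 and 113 CPM in MI, and at 86.4, 70.9, 61.2 and 53.8 CPM in iCarP+/Light+ rats. Both infarcted groups lay below every Sham rat and overlapped each other. It fell by 1.69 on the log2 scale from Sham to MI (SE 0.24, adjusted p = 4.3e-05 by edgeR). Between MI and iCarP+/Light+ rats the difference was -0.14 (SE 0.23, 95% interval -0.65 to 0.37, adjusted p = 0.764 by edgeR), or 0.12 without MI rat 5.

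Timp4 (ENSRNOG00000007955, chromosome 4 from 147156948 to 147163467), the TIMP known for its expression in heart, fell most of the 4. It was measured at 34.1, 62.1, 80.5 and 71.8 CPM in Sham, at 14.9, 4.32, 6.71 and 11.5 CPM in MI, and at 13.1, 4.35, 1.69 and 2.88 CPM in iCarP+/Light+ rats. The infarcted groups overlapped each other and lay below Sham, with iCarP+/Light+ rat 1 apart from the other 3 of its group. The log2 fold change from Sham was -2.73 in MI (SE 0.54, adjusted p = 0.00065 by edgeR) and -3.48 in iCarP+/Light+ rats (SE 0.57, adjusted p = 0.000122 by edgeR). For iCarP+/Light+ against MI it was -0.76 (SE 0.54, 95% interval -1.93 to 0.42, adjusted p = 0.433 by edgeR). Without iCarP+/Light+ rat 1 this became -1.65 (adjusted p = 0.0294 by edgeR), and the change from Sham to iCarP+/Light+ became -4.37. The difference from MI shrank to -0.44 without MI rat 1 and to -0.46 without iCarP+/Light+ rat 4 (adjusted p = 0.707 and 0.661 by edgeR).

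**Figure D3:**
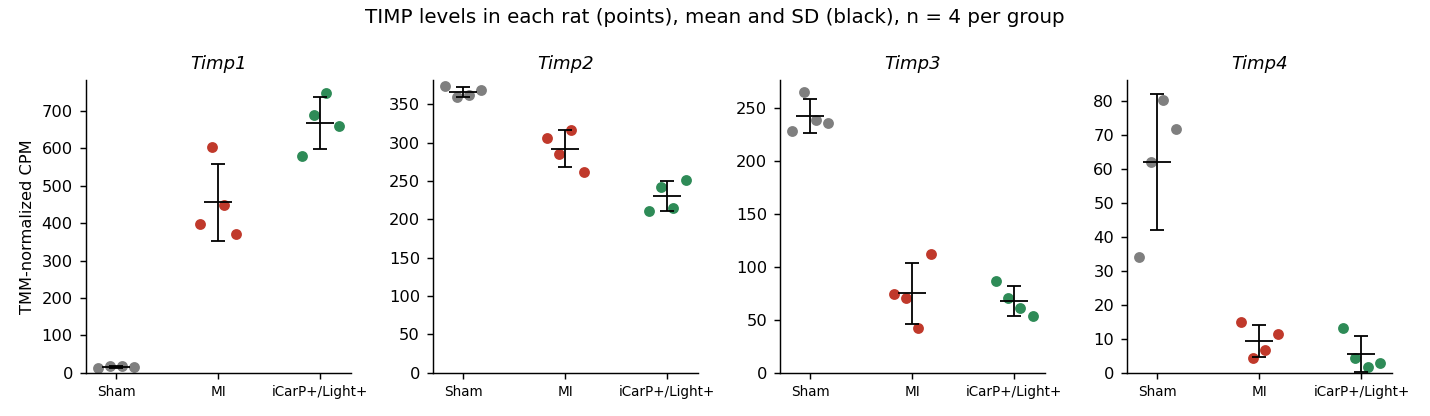
TMM-normalized CPM (linear axes from 0) of the 4 TIMP genes in each rat (points), with the group mean and SD (black), n = 4 per group. Timp1 is at 13.4 to 18.9 CPM in Sham and at 371 CPM or more in every infarcted rat, while Timp2, Timp3 and Timp4 are highest in Sham.

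Each TIMP gene overlaps another gene in the table, and no MMP gene does. Timp1, Timp3 and Timp4 lie within Syn1, Syn3 and Syn2, synapsin genes of the opposite strand, and Timp2 overlaps Cep295nl on its own strand. No strand setting is stated, so it is unknown whether reads from opposite strands were separated. Timp2 and Cep295nl share a strand, so no such setting would separate them. Whether the exons of these pairs overlap was not checked. The overlapping genes had few reads, 1 to 48 per rat for Syn1, 0 to 7 for Syn3, 2 to 90 for Syn2 and 0 to 14 for Cep295nl. Syn1 had 0.0683 to 0.304 CPM in Sham, 0.336 to 1.38 CPM in MI and 0.363 to 3.38 CPM in iCarP+/Light+ rats, higher after ligation as Timp1 was. Syn2 was lower after ligation, as Timp4 was, with 1.88 to 6.83 CPM in Sham, 0.319 to 0.766 CPM in MI and 0.135 to 0.939 CPM in iCarP+/Light+ rats.

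Levels were compared between genes per length, as CPM per kb of gene length in the table. In Sham, Timp2 led at 221 ± 3.88 CPM per kb (SD, n = 4), followed by Timp3 at 139 ± 9.20 and Mmp2 at 95.7 ± 3.04, none of which overlapped its neighbour in this order. Timp4, Mmp14 and Timp1 came next, at 36.5, 26.5 and 21.8 CPM per kb, with each overlapping the next. In MI, Timp1 led at 615 ± 140.4 CPM per kb, ahead of Timp2 at 176 ± 14.3, and Mmp14, Mmp12, Timp3 and Mmp2 followed at 67.2, 54.5, 43.0 and 24.8 CPM per kb with overlap between neighbours. In iCarP+/Light+ rats, Timp1 led again at 903 ± 93.4 CPM per kb, and Mmp9 at 265 ± 111, Mmp8 at 183 ± 72.5 and Timp2 at 139 ± 11.9 followed with overlap between neighbours. Mmp3 was last in each group and overlapped Timp4 only in iCarP+/Light+ rats.

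On this per-length scale, shares were taken within the 6 MMPs and within the 4 TIMPs, and the other MMP genes were not part of the sums. Mmp2 made up 77.9% ± 1.69 of the summed level of the 6 MMPs of Sham rats (SD, n = 4), 15.0% ± 3.62 of it for MI and 7.49% ± 2.46 for iCarP+/Light+. In MI, Mmp14 and Mmp12 held the largest shares, at 40.3% ± 3.14 and 31.8% ± 6.11. Mmp8 and Mmp9 together made up 0.508% ± 0.246 for Sham, 12.7% ± 2.78 for MI and 67.7% ± 7.32 for iCarP+/Light+, whose 4 rats ranged from 57.5% to 75.01%. Among the TIMPs, Timp1 made up 5.21% ± 0.582 for Sham, 72.7% ± 4.78 for MI and 83.2% ± 2.04 for iCarP+/Light+, and Timp2 was the main TIMP in Sham at 52.9% ± 3.01. The summed TIMPs were 418 ± 16.2 CPM per kb for Sham, 839.8 ± 133 for MI and 1084 ± 87.0 for iCarP+/Light+, and the summed MMPs were 123 ± 4.52, 167 ± 31.6 and 648 ± 177 CPM per kb.

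The ratio of the summed MMPs to the summed TIMPs, per length, was 0.328, 0.285, 0.280 and 0.287 in Sham rats, 0.276, 0.156, 0.173 and 0.209 in MI rats, and 0.474, 0.567, 0.523 and 0.826 in iCarP+/Light+ rats. All iCarP+/Light+ rats were above all Sham rats, and all MI rats were below all Sham rats. The ratio of Mmp9 to Timp1 was 0.00210 to 0.0159 for Sham, 0.0116 to 0.0171 for MI and 0.179 to 0.447 for iCarP+/Light+. These ratios are of RNA levels of chosen genes and are given as a description, without a test.

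**Figure D4:**
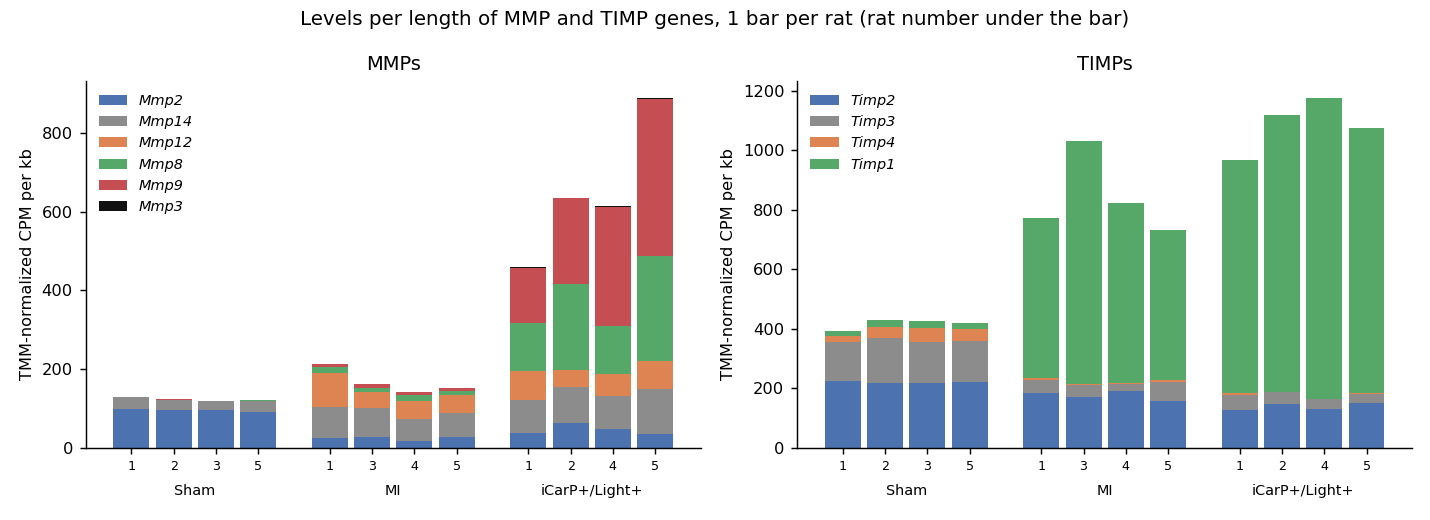
Stacked TMM-normalized CPM per kb of the 6 MMPs (left) and the 4 TIMPs (right), 1 bar per rat with the rat number under it. Mmp2 fills most of the MMP bars in Sham and Mmp8 with Mmp9 fills 57.5% to 75.01% of them in iCarP+/Light+ rats, while Timp1 fills 68.7% or more of the TIMP bar in every infarcted rat.

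Within the iCarP+/Light+ group, rat 1 had the lowest Mmp9 (443 CPM) and the lowest summed neutrophil markers (2549 CPM), and rat 5 had the highest of each (1254 and 7781 CPM). Rat 4 had more Mmp9 than rat 2 (956 against 682 CPM) with lower markers (4921 against 6061 CPM). Mmp8 was lower in rat 4 than in rat 2 (298 against 537 CPM) but about level with rat 1 (301 CPM), which had the lowest markers. Red blood cell markers were lower in MI than in Sham for 5 of 7 genes and higher in iCarP+/Light+ rats than in MI for 4 of 7, and 0 of 7 were called between iCarP+/Light+ and Sham by edgeR, DESeq2 or limma-voom, with 0, 0 and 1 at an unadjusted p under 0.05. Their sum was 8043 to 10830.3 CPM in Sham, 2558 to 7118 CPM in MI and 6331 to 17734 CPM in iCarP+/Light+ rats. Of the other lists, cardiomyocyte markers were lower in MI than in Sham for 8 of 8 genes, endothelial markers for 5 of 5, smooth muscle and pericyte markers for 2 of 6 with 1 higher, and mesothelial markers for 1 of 3, while 3 of 5 lymphocyte markers were higher, 1 of them (Cd3g) under the filter in Sham. From MI to iCarP+/Light+ these lists had 1 call, a lower lymphocyte marker. The part of the cells behind these lists in the values of MMPs and TIMPs was not tested.

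**Figure D5:**
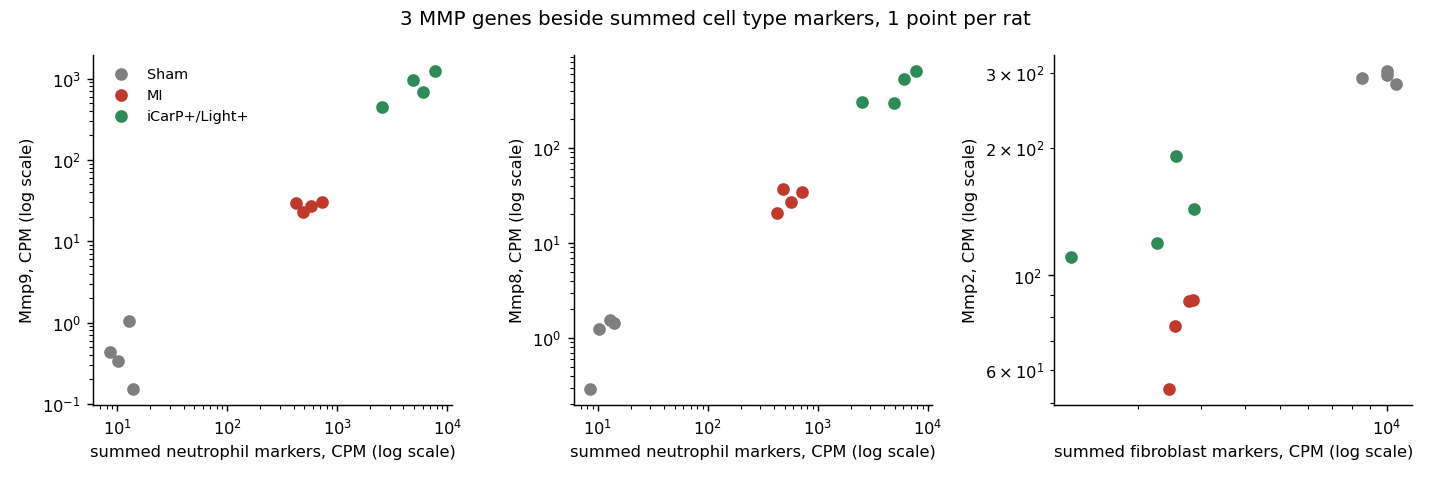
Mmp9 and Mmp8 against the summed neutrophil markers and Mmp2 against the summed fibroblast markers, 1 point per rat, all in TMM-normalized CPM on log axes. For Mmp9 and Mmp8 the 3 groups form separate clusters, with iCarP+/Light+ rats highest in both genes and in neutrophil markers. Sham rats are highest in Mmp2 and fibroblast markers. MI and iCarP+/Light+ rats overlap in fibroblast markers (2446 to 2842 and 1288 to 2861 CPM) and are apart in Mmp2 alone.

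Of 16 other MMP genes listed, 15 were in the table and 7 had enough counts to be tested, and Mmp11 and Mmp21 had no reads in any rat. From Sham to MI, 2 of 7 were higher, Mmp16 (3.05) and Mmp19 (1.42 on the log2 scale), and 4 were lower, with Mmp15 (-2.20) and Mmp24 (-1.14) lowest, and the median was -0.67. Mmp16 would not have passed the filter on low counts through Sham rats alone. From MI to iCarP+/Light+ 1 of 7 passed, Mmp13, a collagenase and the first gene of the run on chromosome 8. Its mean was 0.189 CPM in Sham, 0.422 CPM in MI and 33.4 CPM in iCarP+/Light+ rats, where it ranged from 14.7 to 53.4 CPM. The log2 fold change from MI to iCarP+/Light+ was 6.25 (SE 0.61, adjusted p = 2.77e-05 by edgeR), and the ratio of summed, scaled counts was 75.6 (95% counting interval 53.7 to 110.1). Mmp13 passed the filter on low counts only through iCarP+/Light+ rats, so this call was partly set by the filter. Of the 6 remaining genes of that run, Mmp1, Mmp1b, Mmp7, Mmp10, Mmp20 and Mmp27, none had more than 8 reads in any rat.

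Proteases of the ADAM and ADAMTS families, which shed membrane proteins or cut proteoglycans, were higher in MI than in Sham for 9 of 17 genes and lower for 6, with a median of 0.50. Adam8 (6.95) and Adamts4 (6.70) were highest and Adamts2 (-1.97) and Adamts12 (-1.59) lowest on the log2 scale. For Adam8 and Adam12, 2 of the 9, Sham rats alone would not have passed the filter. From MI to iCarP+/Light+ 3 of 17 were higher and none lower, Adam8 (1.12), Adamts15 (1.11) and Adam17 (0.77), with a median of 0.30.

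Of 15 tested genes (18 listed) that activate, bind or clear MMPs, 8 were higher and 3 lower in MI than in Sham (median 0.75). Thbs1, which encodes the matrix protein thrombospondin 1, was highest (6.55), and Serpine2 (-1.39) and Bsg (-0.82) were lowest on the log2 scale. In iCarP+/Light+ rats 6 were higher and 2 lower than in MI (median 0.25). Lcn2, a neutrophil granule protein that binds MMP9, was at 14.4 to 28.3 CPM in MI and 409 to 1046 CPM in iCarP+/Light+ rats (log2 fold change 5.13, SE 0.37, adjusted p = 3.48e-06 by edgeR). In MI it was not called against Sham, at 0.32 (SE 0.32, adjusted p = 0.41 by edgeR). Plaur, the urokinase receptor, was 1.89 higher than in MI, and Thbs2 (-0.88) and Pcolce (-0.52) were lower.

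Inducers of MMP transcription, cytokines and transcription factors of the AP-1, ETS, RUNX and NF-kappaB families, were higher in MI than in Sham for 11 of 21 genes and lower for 1, Ets1 (-0.76), with a median of 1.19. Il6 (6.26) and Osm (4.27) had the largest fitted log2 fold changes. Sham rats alone would not have passed the filter on low counts for either gene, and the ratio of summed, scaled counts was 83.8 for Il6 (95% counting interval 32.5 to 308.9) and 19.5 for Osm (13.0 to 30.7). In iCarP+/Light+ rats 14 of 21 were higher than in MI and none lower, with a median of 1.28. Il1a, at 0 to 0.727 CPM in MI and 181 to 369 CPM in iCarP+/Light+ rats, and Il1b, at 30.5 to 64.0 CPM and 1132 to 2430.1 CPM, had the largest fitted log2 fold changes, 9.79 and 5.30. Il1a and Tnf passed the filter only through iCarP+/Light+ rats, so their 2 calls of the 14 were partly set by the filter and add no support to the count. The ratio of summed, scaled counts was 898 for Il1a (95% counting interval 593 to 1433) and 23.8 for Tnf (8.94 to 89.6), which had 77 reads in all iCarP+/Light+ rats and 4 in all MI rats. The smallest called were Fosl1 (0.50) and Rela (0.57).

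Matrix substrates were lower in MI than in Sham for 10 of 17 tested genes (18 listed) and higher for 4, with a median of -0.83. Laminin gene Lama2 (-2.85) and elastin gene Eln (-2.37) were lowest, and Spp1 (11.12) and Tnc (4.41), which encode osteopontin and tenascin C, were highest on the log2 scale. From MI to iCarP+/Light+ 2 of 17 were higher and none lower, Tnc (0.83) and Dcn (0.73), with a median of -0.18. Set against Sham, iCarP+/Light+ rats had 3 higher and 3 lower genes of the other MMPs, 10 and 3 of the ADAM and ADAMTS genes, 9 and 4 of the genes that activate, bind or clear MMPs, 20 and 1 of the inducers, and 4 and 10 of the substrates. Sham rats alone would not have passed the filter for 2 of the 3 higher MMPs, 2 of the 10 ADAM and ADAMTS genes and 4 of the 20 inducers.

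The genes most like each of the 10 were found by Pearson's r of log2 CPM over the 12 rats. The search covered 10722 protein-coding genes with a symbol and a mean of at least 5 CPM. As the rats form 3 groups, r mostly reflects group means, and it is given beside r of the deviations from those means. Mmp9 was most like Nlrp3, which encodes an inflammasome sensor (0.994, and 0.736 within groups), and Mmp8 most like Rab44 (0.992, and 0.703) and Il7r (0.991, and 0.880). Mmp12 was most like Gpnmb (0.996, and 0.457), Mmp14 most like Cass4 (0.991, and 0.803), and Mmp3 most like Bcl10 (0.974, and 0.742). Mmp2 was most like Antxr1 (0.988, and 0.863). Among the TIMPs, Timp3 was most like Tns2 (0.994, and 0.954 within groups) and Caskin2 (0.994, and 0.970), Timp1 most like Pabpc1 (0.995, and 0.419), Timp2 most like Kptn (0.949, and 0.527) and Timp4 most like Fam117b (0.961, and 0.778). Between members, r was 0.981 for Mmp8 with Mmp9 and 0.140 within groups, and it was 0.988 for Mmp12 with Timp1 and -0.05 within groups.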

How the data were processed

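RNA-seq of 12 rats was used. The authors deposited raw read counts per gene, without normalization, in a table of 34599 genes with positions and lengths. The submitters' processing notes name HISAT2, featureCounts and build rn6, with no versions. The strand setting is not given in the sources used here. Replicates are separate rats numbered in the sample titles, and no pair within a group was a copy (chi-square per gene 14.8 to 119 over 18 pairs). The 10 genes, the gene lists and the markers were chosen with earlier results of these data known. Apart from the 10 genes, the genes named are the 2 highest and 2 lowest called genes of a list 1 or both of the 2 genes most correlated with a member, and genes that overlap one. Others (Lcn2 in MI, Adam12, Adam17, Tnf, Mmp11, Mmp21 and the genes of the run on chromosome 8) were named after their values were seen. One gene that this rule names is not reported here.

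The analysis used edgeR 4.0.16 (R 4.3.3) with filterByExpr (minimum count 10), TMM and a quasi-likelihood fit of 1 mean per group to all 12 rats. The fit was tested on simulated data, with no result given here, so nothing in this text rests on that test. CPM per kb is CPM divided by the deposited gene length, and log2 CPM used a prior count of 2. The floor was 3 counts per library, and counting intervals of ratios are exact binomial at 95%; both cover counting error only. Alternatives were DESeq2's size factors, total counts alone, DESeq2 1.42.0, limma-voom (limma 3.58.1), other filters, no mitochondrial genes, only the compared rats, a replicate block, and each rat left out. Rats that share a number are different animals, so the main fit had no block. Plots used matplotlib 3.10.9.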

Additional observations from a re-analysis of the deposited data

Results flagged for a closer look

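In 29 sets of 4 rats (a gene in a group), the gap of the lowest or highest rat to its neighbour was divided by the range of the set, and 2 exceeded Dixon's 95% critical value, where chance gives about 1 in 20, or 1.45 of 29. Mmp8 in Sham rat 1 was at 0.289 CPM against 1.23 to 1.55 CPM in the other Sham rats (ratio 0.848). Mmp12 in MI rat 1 was at 154 CPM against 76.2 to 81.1 CPM in the other MI rats (ratio 0.912), and without this rat its log2 fold change from MI to iCarP+/Light+ was 0.45 (adjusted p = 0.147 by edgeR).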

How the results depend on the processing

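Of 30 log2 fold changes of the 10 genes, 21 neither turned nor crossed the threshold under any alternative run. The others were those of Mmp3 from Sham to MI, Timp2 from Sham to MI, and 7 from MI to iCarP+/Light+, all but Mmp2, Mmp8 and Mmp9. Directions turned for Mmp12 from MI to iCarP+/Light+ (-0.13 with total counts alone, -0.022 to 0.45 with a rat left out), Timp3 (-0.34 to 0.12 with a rat left out) and Timp2 from Sham to MI (0.25 with total counts alone). The cause was not tested. From MI to iCarP+/Light+ 7 of the 10 genes were called, 4 with only the compared rats, and 3 to 6 with a rat left out. Asking for at least 10 counts in every sample left 6 of the 10 genes to be tested, since Mmp3, Mmp8, Mmp9 and Mmp12 could not be fitted. Against Sham, 2 of the 6 were then higher and 4 lower, both for MI and for iCarP+/Light+. Over all 12358 genes so tested, 4165 were higher and 3944 lower in MI, and 4273 and 4148 in iCarP+/Light+. From MI to iCarP+/Light+ 2 of the 6 were called, 1 higher and 1 lower, against 1248 and 475 of all genes. Over all genes, 2051 were called from MI to iCarP+/Light+ and 3926 with total counts alone. With a replicate block, 1298 genes and 4 of the 10 were called, and Mmp3 (4.87, adjusted p = 0.0556 by edgeR) and Timp2 (-0.32, adjusted p = 0.0647 by edgeR) lost their calls from Sham to MI. The block also ended the calls of Mmp3, Mmp14 and Timp2 from MI to iCarP+/Light+. Numbers did not pair the rats: r of deviations was -0.150 to 0.0654 in 9 pairs with the same number. Mmp3 from Sham to MI could not be fitted with only the compared rats, and in MI (0 to 10 reads) it is at the limit of depth.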
